A study of Drosophila melanogaster with 4 samples.

Results

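The CYP3 clan of cytochrome P450 genes was followed in *poly* mutant larvae of *Drosophila melanogaster*. Members were taken by symbol, as every gene with a probe whose name puts it in the family CYP6, CYP9, CYP28, CYP308, CYP309, CYP310 or CYP317. This gave 40 genes of the 11907 named on the arrays, each with 1 probe. By family, 25 were CYP6, 6 were CYP9, 4 were CYP28 and 2 were CYP309, and CYP308, CYP310 and CYP317 had 1 gene each. The platform annotation gives 3 of the 40 names ending in Psi, for pseudogene, and RefSeq now lists one of these, *Cyp6a16Psi*, as a protein-coding gene.

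RNA of whole larvae in the early part of the third instar was hybridized on 4 arrays with 2 colours, each array comparing 1 biological replicate of *poly* mutants with 1 of wild-type. The mutant is labelled poly05137/TM6B, a P-element insertion in *poly* kept over the balancer chromosome TM6B, and the wild-type is Canton S, which the labels also give as the genetic background of the mutant. Both genotypes were fed fresh yeast paste. The sources used here do not say whether the mutant larvae were picked as homozygotes, nor whether the stock was crossed into Canton S, so effects of the mutation and of other differences between the stocks cannot be told apart. On replicates 1 and 2 the mutant RNA was labelled with Cy5, and on replicates 3 and 4 with Cy3. Each value below is a log2 ratio, mutant over wild-type. The transcript of *poly* itself (listed as *Elp6*) had ratios of −1.49, −1.57, −1.69 and −1.79 on replicates 1 to 4. Replicate 3 had the widest spread over all probes (median absolute deviation 0.519, against 0.297 to 0.381 on the others) and correlated with replicate 2 at a Pearson r of −0.18 over all probes. Whole larvae were used, so more RNA per cell and more cells of an expressing tissue cannot be told apart.

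Cytochrome P450 enzymes carry a haem group and use electrons from a reductase to insert oxygen into small molecules. In insects the CYP3 clan holds the families best known for the breakdown of plant toxins and insecticides, and many of its genes are used in the midgut, Malpighian tubules and fat body. Its genes often sit in tandem clusters of close relatives that arose by duplication. The probes were not tested for cross-hybridization, so close relatives can share signal.

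Higher transcripts of CYP3-clan genes outnumbered lower ones in the mutants. With limma and an adjusted p under 0.05 over all probes, 9 of the 40 genes rose, 0 fell and 31 did not pass. This is 22.5% of the members higher, against 1.42% of all named genes called higher and 1.25% called lower. At an unadjusted p under 0.05, 19 members were higher, against 8.12% of all named genes, and 4 were lower, against 8.92%. On the 4 arrays 18 members were above 0 every time, against 14.8% of all named genes, and 4 were below 0 every time, against 11.9%. The other 18 changed sign between arrays. The median of the members was 0.41, against 0.04 over all named genes, and it was 0.42, 0.43, 0.30 and 0.52 on replicates 1 to 4. The 37 genes whose names do not end in Psi had a median of 0.58.

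**Figure D1:**
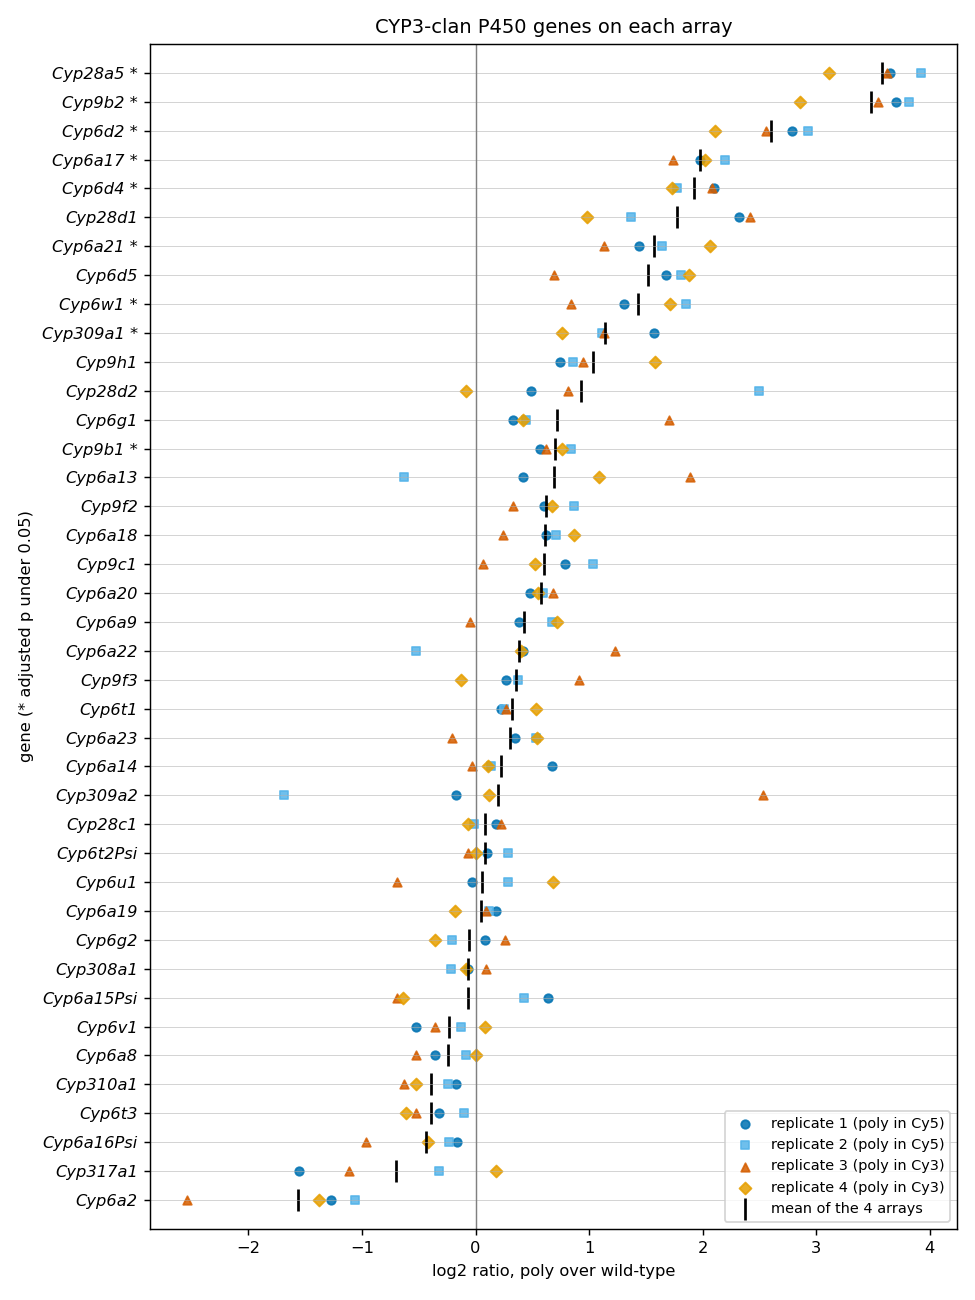
Log2 ratio of *poly* over wild-type (horizontal axis) for each of the 40 genes (rows, ordered by mean), with 1 point per array, a black bar at the mean and an asterisk at genes with an adjusted p under 0.05. Ratios run from a mean of 3.58 for *Cyp28a5* to −1.56 for *Cyp6a2*, and the 9 called genes lie to the right of 0 on every array.

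The largest ratio belonged to *Cyp28a5*, of a family first known from cactus-feeding *Drosophila*, where its genes respond to host plant alkaloids. *Cyp28a5* had log2 ratios of 3.65, 3.92, 3.62 and 3.11 (replicates 1 to 4), and its mean was 3.58 ± 0.34 (SD, n = 4 arrays), or 11.9-fold (adjusted p = 0.00863 from limma). *Cyp9b2* had ratios of 3.70, 3.82, 3.54 and 2.86, a mean of 3.48 ± 0.43, or 11.2-fold (adjusted p = 0.0106). Both genes were lowest on replicate 4 and high on each array, and no other member reached a ratio of 3 on any array. Fold changes on the variance-stabilized scale can understate the change of dim probes, and no signal over background was available.

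The 3 genes of the CYP6D subfamily were all high, though they do not lie near each other. *Cyp6d2*, a gene tied to resistance against the drug camptothecin in flies, had ratios of 2.79, 2.93, 2.56 and 2.11, a mean of 2.60 ± 0.36 (SD, n = 4, adjusted p = 0.0109 from limma). *Cyp6d4* had ratios of 2.10, 1.77, 2.08 and 1.73, a mean of 1.92 ± 0.20 (adjusted p = 0.0106). *Cyp6d5* had ratios of 1.68, 1.81, 0.69 and 1.88, a mean of 1.52 ± 0.56, and fell just short of the threshold (adjusted p = 0.0518). Replicate 3 stood apart for *Cyp6d5*, and without it the mean was 1.79 and the gene passed (adjusted p = 0.0182).

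Among the other CYP6 genes, 2 of the 14 in the CYP6A subfamily rose, and so did *Cyp6w1*. *Cyp6a17*, a gene tied to the temperature preference of flies, had ratios of 1.98, 2.20, 1.74 and 2.02, a mean of 1.98 ± 0.19 (SD, n = 4, adjusted p = 0.0106 from limma). *Cyp6a21* had ratios of 1.44, 1.64, 1.13 and 2.06, a mean of 1.57 ± 0.39 (adjusted p = 0.0296). *Cyp6w1*, which has been linked to DDT resistance, had ratios of 1.31, 1.85, 0.84 and 1.71, a mean of 1.43 ± 0.45 (adjusted p = 0.0432). All 3 were lowest on replicate 3. The calls of *Cyp6a21* and *Cyp6w1* were lost with a dye term in the fit and with scaled arrays, and that of *Cyp6w1* also with median centring.

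The last calls were of smaller ratios. *Cyp309a1* had ratios of 1.57, 1.11, 1.13 and 0.76, a mean of 1.14 ± 0.33 (SD, n = 4, adjusted p = 0.0427 from limma). *Cyp9b1* had ratios of 0.57, 0.84, 0.62 and 0.76, a mean of 0.70 ± 0.12 (adjusted p = 0.0499). *Cyp9b1* passed through its narrow spread rather than its size, since 5 genes with larger means (*Cyp28d1*, *Cyp6d5*, *Cyp9h1*, *Cyp28d2* and *Cyp6g1*) did not pass. The calls of *Cyp309a1* and *Cyp9b1* were lost with a dye term, with median centring, with scaled arrays and without replicate 3, and that of *Cyp9b1* also with a robust prior.

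The calls depended on which array was left out. Without replicate 1, 2 or 4, 0 members and 0 genes of the whole table passed. The 9 called members then had mean ratios between 0.65 and 3.73, a sign fixed by their being above 0 on every array. At an unadjusted p under 0.05 there were then 17, 19 and 17 of the 40 members, against 11.3%, 10.8% and 13.8% of all named genes. Without replicate 3, the array that stood apart, 8 members were higher and 1 lower, against 216 (1.81%) and 151 of all named genes. Of the 9 calls 7 were kept, *Cyp6d5* was gained and *Cyp6a2* was called lower. Array weights, which lean on replicates 1 and 2 and so on 1 dye orientation, gave 16 higher and 1 lower. Of all named genes they gave 622 higher (5.22%) and 639 lower.

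Several genes narrowly missed the threshold. *Cyp28d1*, linked to nicotine resistance, had ratios of 2.32, 1.37, 2.42 and 0.98, a mean of 1.77 ± 0.71 (SD, n = 4, adjusted p = 0.0591 from limma). *Cyp9h1* had ratios of 0.74, 0.86, 0.95 and 1.58, a mean of 1.03 ± 0.37 (adjusted p = 0.0615). Both were above 0 on every array. *Cyp6a20*, known for its effect on aggression in males, had ratios of 0.48, 0.59, 0.68 and 0.55, with the smallest spread of any member (0.58 ± 0.08, adjusted p = 0.0651).

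The lowest ratio belonged to *Cyp6a2*, which has been linked to DDT resistance and metabolism. *Cyp6a2* had ratios of −1.27, −1.06, −2.54 and −1.38 (replicates 1 to 4), and its mean was −1.56 ± 0.66 (SD, n = 4), and did not pass (adjusted p = 0.0683 from limma). The wide value of replicate 3 sets its spread, and the gene passed without that array (−1.23, adjusted p = 0.0257), with scaled arrays (−1.55, adjusted p = 0.0409) and with array weights (−1.26, adjusted p = 0.0151). It was the only member called lower under any of the alternatives tried. The other 3 members below 0 on every array were small. *Cyp6t3*, which acts in ecdysone synthesis in the prothoracic gland, had ratios of −0.32, −0.10, −0.52 and −0.61 (mean −0.39 ± 0.22). *Cyp310a1* had ratios of −0.17, −0.24, −0.63 and −0.52, and *Cyp6a16Psi* had ratios of −0.16, −0.23, −0.96 and −0.42. None of these passed, with adjusted p between 0.227 and 0.303. *Cyp317a1* had ratios of −1.55, −0.32, −1.11 and 0.18, which crossed 0.

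*Cyp6g1*, whose raised expression gives resistance to DDT and imidacloprid in field strains, had ratios of 0.33, 0.44, 1.70 and 0.42, a mean of 0.72 ± 0.65 (SD, n = 4, adjusted p = 0.294 from limma). Its mean rests on replicate 3, and the other arrays averaged 0.40. *Cyp6a8*, also raised in DDT-resistant strains, had a mean of −0.24 ± 0.24 (adjusted p = 0.496). *Cyp6g2*, which gives resistance when overexpressed, had a mean of −0.06 ± 0.28 (adjusted p = 0.918).

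By family, calls were found in CYP6, CYP9, CYP28 and CYP309. Of 25 CYP6 genes 5 rose and 0 fell, with a median of 0.32 and a range from −1.56 to 2.60. Of 6 CYP9 genes 2 rose and 0 fell, with a median of 0.66, and all 6 had a mean above 0, from 0.36 for *Cyp9f3* to 3.48. *Cyp9c1* (0.60 ± 0.42) and *Cyp9f2* (0.62 ± 0.23) were above 0 on every array without passing. Of 4 CYP28 genes 1 rose, and they ran from 0.08 for *Cyp28c1* to 3.58. Of 2 CYP309 genes 1 rose. *Cyp308a1* had a mean of −0.07 ± 0.13. No test of the difference between families was made, as 5 of the 7 have 4 genes or fewer and genes of a family are not replicates.

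**Figure D2:**
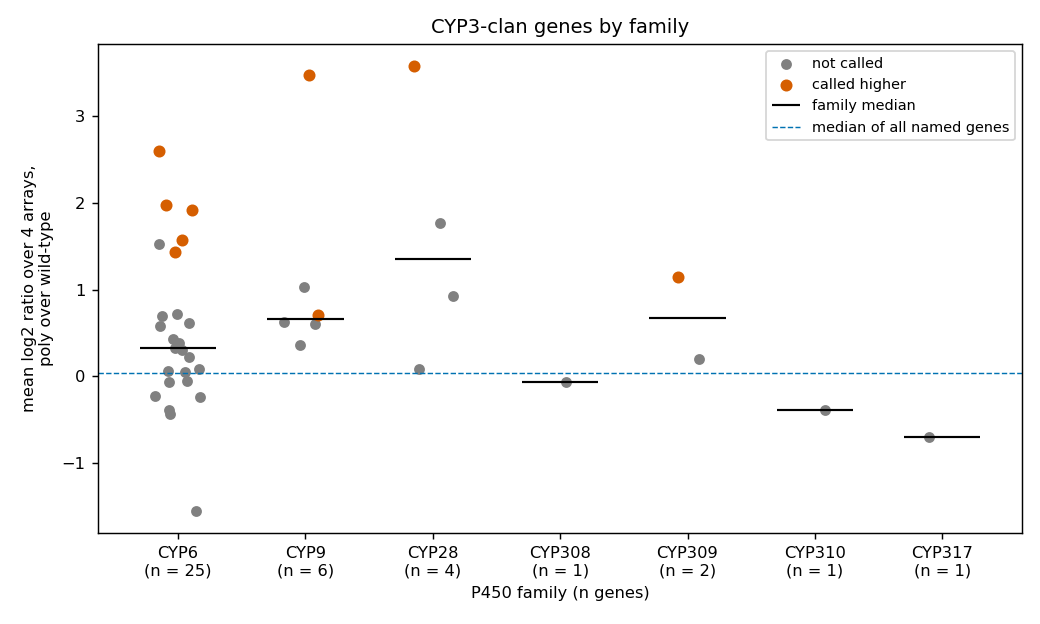
Mean log2 ratio over 4 arrays (vertical axis) for the genes of each CYP3-clan family (horizontal axis, n genes), with called genes in orange, a bar at each family's median and a dashed line at the median of all named genes. CYP6 genes spread from −1.56 to 2.60 around a median of 0.32, and the 6 CYP9 genes all lie above 0.

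Clustered neighbours were compared within each array, a cluster being a run of members with at most 5 other genes between neighbours in the RefSeq gene order (assembly GCF_000001215.4, used for order only). There were 7 clusters with 23 members, and 17 members stood alone. Of the clustered members 5 rose and of the others 4. Differences between neighbours were tested with an exact two-sided sign-flip permutation test, whose smallest p on 4 arrays is 2 of 16 sign patterns, so no pair could pass. Of 16 neighbouring pairs 6 had the same order on the 4 arrays, each at that smallest p (0.333 after Benjamini–Hochberg adjustment over the 16 pairs, exact test). All of these but *Cyp6g1* and *Cyp6g2* hold a called gene, which was above 0 on every array, so their order is tied in part to the call. The share among other neighbouring genes was not computed.

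The largest step between neighbours was in the pair *Cyp9b1* and *Cyp9b2*. Both rose, and *Cyp9b2* was above *Cyp9b1* by 2.78 ± 0.46 on the log2 scale (SD, n = 4), from 2.10 to 3.13 on single arrays. In the cluster of 9 genes, in the order *Cyp6a22*, *Cyp6a17*, *Cyp6a23*, *Cyp6a19*, *Cyp6a9*, *Cyp6a20*, *Cyp6a21*, *Cyp6a8* and *Cyp317a1*, the 2 called genes were each flanked by genes with smaller ratios. *Cyp6a17* exceeded *Cyp6a23* by 1.68 ± 0.20 and *Cyp6a22* by 1.60 ± 0.90. *Cyp6a21* exceeded *Cyp6a8* by 1.81 ± 0.18 and *Cyp6a20* by 0.99 ± 0.43. All 4 of these differences had the same direction on each array. Between the 2 peaks, *Cyp6a23* (0.30 ± 0.35), *Cyp6a19* (0.05 ± 0.16) and *Cyp6a9* (0.43 ± 0.35) did not pass and each crossed 0 on 1 array, while *Cyp6a20* (0.58 ± 0.08) did not pass but was above 0 on every array.

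Other clusters had less regular values. *Cyp6g1* exceeded its neighbour *Cyp6g2* by 0.78 ± 0.50 on the log2 scale (SD, n = 4), in the same direction on each array. *Cyp309a2*, next to the called *Cyp309a1*, had ratios of −0.17, −1.69, 2.53 and 0.12, the widest spread of any member (0.20 ± 1.75), so that the difference between them, 0.95 ± 1.79, was within its spread. *Cyp28d2*, next to *Cyp28d1*, had ratios of 0.49, 2.50, 0.81 and −0.08, high on replicate 2 alone. *Cyp6a14*, *Cyp6a15Psi* and *Cyp6a13* had means of 0.22, −0.07 and 0.69 with no call, and *Cyp6a15Psi* was above 0 on replicates 1 and 2 (0.64 and 0.43) and below 0 on replicates 3 and 4 (−0.69 and −0.64).

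**Figure D3:**
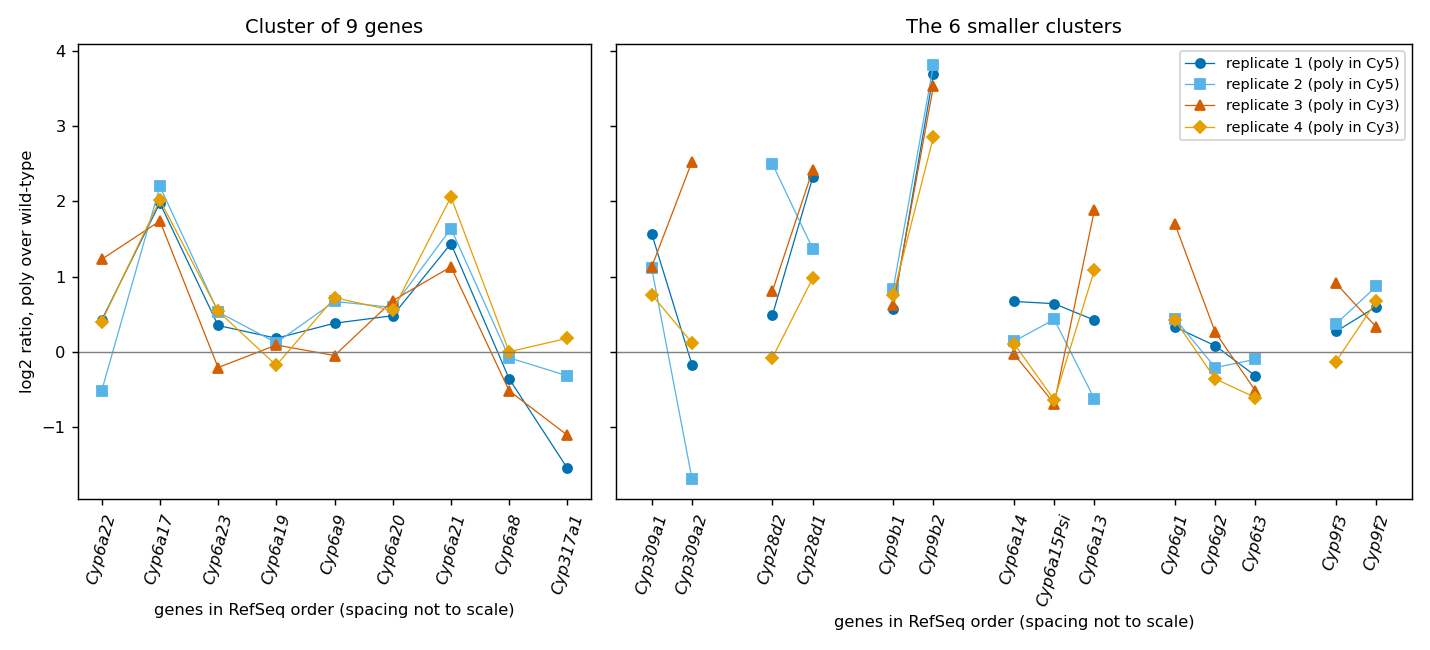
Log2 ratio of *poly* over wild-type on each array (vertical axis, 1 line per array) for clustered genes in RefSeq order (horizontal axis, spacing not to scale), with the cluster of 9 genes on the left and the 6 smaller clusters on the right. *Cyp6a17* and *Cyp6a21* stand above both of their neighbours on every array, and *Cyp9b2* stands above *Cyp9b1*.

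Labelling kept no strand, so a probe within a stretch shared by overlapping genes cannot tell them apart. The positions of the probes were not examined. In RefSeq 18 members overlap another gene, among them 2 of the called ones. *Cyp6d2* overlaps *nsr*, whose ratio was −0.05 ± 0.19, and *Cyp9b1* overlaps *esn*, whose ratio was 0.11 ± 0.06 (SD, n = 4). Neither partner was called (adjusted p = 0.914 and 0.692 from limma). *Cyp6g1* overlaps *Cyp6g2*, and *Cyp6a19* overlaps *Cyp6a9*.

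Values of both dye orientations were set side by side. The mean of replicates 1 and 2 and the mean of replicates 3 and 4 had the same sign for 32 of the 40 members, and 27 members had the higher mean where *poly* carried Cy5, with a median difference of 0.17. *Cyp28a5* had 3.79 and 3.36, *Cyp9b2* 3.76 and 3.20, *Cyp6d2* 2.86 and 2.33, *Cyp309a1* 1.34 and 0.95 and *Cyp6d4* 1.93 and 1.91. Among the called members only *Cyp6a21* (1.54 and 1.59) had the lower mean where *poly* carried Cy5. The orientations diverged most for *Cyp309a2* (−0.93 and 1.32), *Cyp6a13* (−0.11 and 1.49), *Cyp6a15Psi* (0.53 and −0.67) and *Cyp28d2* (1.50 and 0.37), none of which was called. A call needs a small spread over the arrays, so genes that diverge this much could hardly be called. Across the 40 members, which are not independent replicates, the arrays correlated with a Pearson r between 0.62 and 0.88, against −0.18 to 0.62 over all 14569 probes. Called members with large ratios on every array weigh heavily in the former, so it does not show that the clan was measured more evenly.

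**Figure D4:**
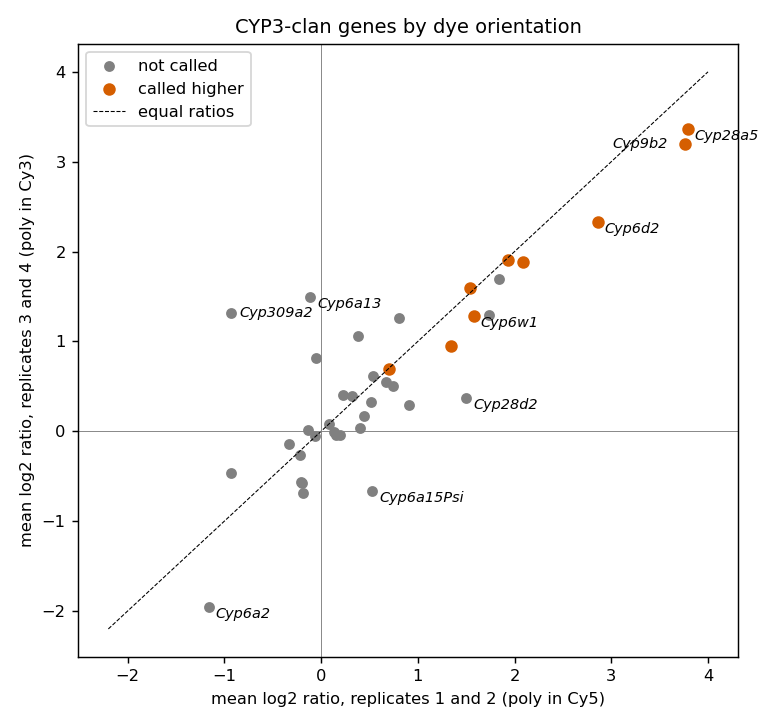
Mean log2 ratio of replicates 1 and 2, with *poly* in Cy5 (horizontal axis), against that of replicates 3 and 4, with *poly* in Cy3 (vertical axis), for the 40 genes, with called genes in orange and a dashed line of equal ratios. The called genes lie near the line, in part because a call needs a small spread over the arrays. *Cyp309a2* at −0.93 and 1.32 lies farthest from it.

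Partners of P450 enzymes and regulators of xenobiotic or gut genes were taken from a list of 25 genes, of which 22 were measured. Of the 22, 1 rose (4.55%), 0 fell and 21 did not pass, with a median of 0.16. The shares over all named genes were 1.42% higher and 1.25% lower, with a median of 0.04, and 1 call is too few to set the list apart. The riser was *Alas*, which makes the first intermediate of haem in mitochondria, with ratios of 0.69, 1.05, 0.72 and 0.95, a mean of 0.85 ± 0.18 (SD, n = 4, adjusted p = 0.0404 from limma). Its call was lost with a dye term, with median centring and with scaled arrays. The next enzyme of the pathway, *Pbgs*, had a mean of 0.97 ± 0.31 (adjusted p = 0.0518), and *FeCH*, ferrochelatase, which puts iron into the ring, had 1.04 ± 0.41 (adjusted p = 0.0704). Both were above 0 on every array. The measured enzymes between them had smaller ratios, from −0.29 for *Uros1* to 0.37 for *Coprox*. *Cyt-b5*, an electron donor, had a mean of 0.78 ± 0.38 over its 2 probes and did not pass (adjusted p = 0.134 for the probe with the smaller p). The P450 reductase *Cpr* was not analysed here.

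Regulators did not pass. *cnc*, the fly relative of Nrf2 that drives detoxification genes with *maf-S*, had a mean of 0.37 ± 0.42 (SD, n = 4, adjusted p = 0.452 from limma), and *maf-S* had −0.04 ± 0.36. *Keap1*, the inhibitor of *cnc*, had −0.08 ± 0.39. *Hr96*, a nuclear receptor of the xenobiotic response, had ratios of −0.22, −2.68, 2.07 and 0.63, too far apart to give a direction. *GATAe*, a factor of the midgut, had ratios of 0.10, 0.46, 0.52 and 1.16 (mean 0.56 ± 0.44, adjusted p = 0.261).

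Marker genes of tissues that use these P450 genes were set beside them. Of 21 measured midgut genes, mainly digestive proteases and lysozymes, 3 rose (*Jon65Ai*, *Jon66Ci* and *Jon66Cii*), 0 fell and 18 had a mean above 0. Of all named genes 1.42% were called higher and 1.25% lower, and 6797 of 11907 had a mean above 0. In the midgut list 11 genes were above 0 on every array and 10 changed sign, and the lowest mean was −0.45 (*Jon25Bii*). The median of the midgut list was 0.87, with 0.84, 1.13, 0.30 and 1.05 on replicates 1 to 4, lowest on replicate 3. The median of all 40 CYP3-clan genes was also lowest there. Over the 37 whose names do not end in Psi it was highest there, with 0.42, 0.53, 0.62 and 0.54. Of 13 genes of Malpighian tubules 0 rose and 1 fell (*Picot*), with a median of 0.02. Of 10 genes listed for the fat body 7 were measured. Among these 0 rose and 1 fell (*Lsd-1*), with a median of −0.15 and 3 means above 0. The 7 include *PPO1* (−0.92 ± 1.07), a prophenoloxidase gene of blood cells, so this median is not of fat body genes alone. *Lsp2*, a larval serum protein that accumulates late in larval life, had ratios of −3.48, 1.53, 3.43 and 1.12. *Fbp2* had −0.13, 3.62, 3.19 and 3.43 and *Fbp1* had −2.34, −0.12, 5.22 and −0.18, and neither passed. The part of the midgut share or of larval age in the ratios of the P450 genes was not tested.

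**Figure D5:**
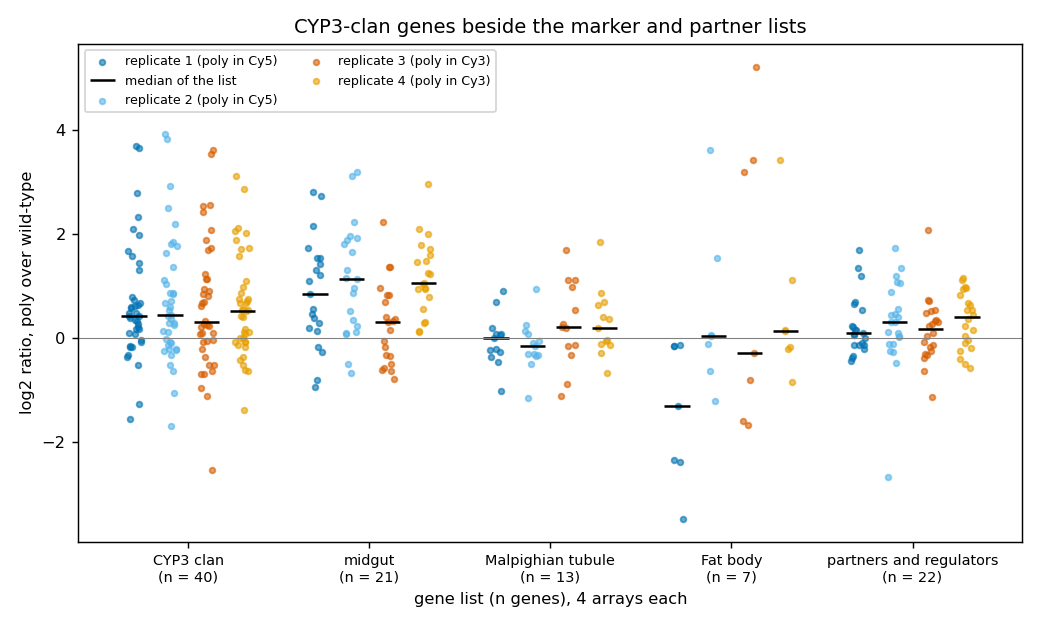
Log2 ratio of *poly* over wild-type (vertical axis) on each of 4 arrays for the genes of 5 lists (horizontal axis, n genes), 1 point per gene and a black bar at the median of the list. Medians of the midgut list lie between 0.30 and 1.13, those of the CYP3 clan between 0.30 and 0.52, and genes of the fat body list scatter most.

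Beside the other P450 clans, the CYP3 clan held the most called genes but not the highest share. Of 32 CYP4-clan genes 2 rose and 1 fell, with a median of 0.02. Of 9 genes of the mitochondrial clan 5 rose, all of the CYP12 family, with a median of 0.90. Of 4 CYP2-clan genes 0 were called, with a median of 0.13. Over all named genes 1.42% were called higher and 1.25% lower, and the median was 0.04. These clans share their arrays, and no test of the difference was made.

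The genes with ratios most like those of the called members were found by the Euclidean distance between the 4 log2 ratios, over all named genes. *Cyp28a5* and *Cyp9b2* were each among the nearest to the other (distance 0.285), and both had CG11893 and *Rdh1* as their other nearest genes. No other called member had a CYP3-clan gene among its 3 nearest. *Mdr49*, an ABC transporter of the multidrug resistance type, was among the nearest to *Cyp309a1* (distance 0.194), and the digestive protease gene *Jon65Aii* among the nearest to *Cyp6a21* (distance 0.347). CG3285 was the nearest to *Cyp6d4* (distance 0.144).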

How the data were processed

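Log2 ratios of *poly* over wild-type larvae were analysed for 4 arrays with 2 colours and long oligonucleotide probes. The authors measured the spots with Dapple, applied vsn and deposited a log2 ratio for each of 14569 probes. Background correction, spot filters and versions are not stated in what was used here. Signal intensities were not used, so the number of arrays limits the precision. No column was turned: the *poly* transcript was below 0 on both dye orientations, and genes that the study lists as downregulated in *poly* are below 0 here.

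Probes were named by GEO's platform annotation, updated through RefSeq. Of the probes, 12657 had 1 gene symbol. A gene was called when a probe of it passed limma (lmFit and eBayes, two-sided, each probe against 0, 4.97 degrees of freedom) at a Benjamini–Hochberg adjusted p under 0.05 over all probes and none passed the other way. Medians use the mean of a gene's probes. Members and lists were chosen with earlier results of these data known. Every called member and the 5 highest and 5 lowest others are given array by array, then clustered neighbours. Other genes were singled out after their values were seen. Promoter and protein motifs were planned and not run, as no sequences were used here.

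Alternatives were a dye term, median centring, arrays scaled to one median absolute deviation, array weights, a robust prior, probes averaged per gene and each replicate left out. The fit was tested on simulated data, where it recovered 29.5%, 70.0% and 84.5% of 200 probes changed by 1, 2 and 3 on the log2 scale. It also made 5, 9 and 6 false calls among the unchanged probes. The simulated arrays had equal spread and independent noise, unlike the data, where replicate 3 was wider. As recovery was incomplete, a gene that did not pass may still have changed. Fits were made in R 4.3.3 with limma 3.58.1, summaries in Python 3.11.15 with pandas 2.3.3 and numpy 2.4.6, and plots with matplotlib 3.10.9.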

Additional observations from a re-analysis of the deposited data

Results flagged for a closer look

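In 3 of the 40 members 1 array lay far from the other 3 by Dixon's criterion, which chance meets in about 1 in 20 groups. *Cyp6d5* had a log2 ratio of 0.69 on replicate 3, against 1.68 to 1.88 on the others. The gene *rdx*, which overlaps it, had −1.05 on replicate 3, against 0.43, 0.58 and 0.18. *Cyp6g1* had 1.70 on replicate 3, against 0.33 to 0.44. *Cyp6t1*, which was not called, had 0.53 on replicate 4, against 0.22 to 0.27. The cause was not tested.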

How the results depend on the processing

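In place of 9 CYP3-clan calls there were 5 with a dye term, 17 with array weights (16 higher and 1 lower), 6 with median centring, 6 with scaled arrays (5 higher and 1 lower), 8 with a robust prior and 10 with probes averaged per gene, and between 0 and 9 with each replicate left out. The share of all named genes called higher was 0.806% with a dye term, 5.22% with array weights and 1.13% with median centring. It was 0.697% with scaled arrays, 1.26% with a robust prior, 1.63% with probes averaged per gene and 1.81% without replicate 3. The 9 called genes kept their direction under the 10 alternatives. With a replicate left out, array weights or the balanced dye term this was fixed in advance, as each gene was above 0 on every array. *Cyp28a5*, *Cyp9b2*, *Cyp6d2*, *Cyp6a17* and *Cyp6d4* kept their calls under all alternatives but those without replicate 1, 2 or 4. The cause was not tested. The median of the clan stayed between 0.36 and 0.45, and that of CYP6 between 0.26 and 0.35. The CYP9 median was between 0.59 and 0.75 with replicates left out. Of the partners and regulators, in place of 1 call there were 0 with median centring, 0 with scaled arrays, 5 with array weights, 2 with probes averaged per gene and between 0 and 3 with replicates left out. Each array pairs both genotypes, so the test of its ratios against 0 is itself the paired analysis.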
